A study of Mus musculus with 22 samples.

Results

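Cell-surface receptors through which growth hormone (GH), cytokines and growth factors act on the liver were examined in mice with and without a pituitary. The 10 genes were Ghr, Prlr, Lifr, Il6ra, Il6st, Egfr, Insr, Met, Fgfr3 and Fgfr4, taken from the arrays through the RefSeq accession given for each probe. They were represented by 21 probes of the 41174 on the array, and all 10 were among the 26191 of 33767 gene names that were tested. The livers came from ICR mice aged 8 weeks. The groups, each in males and in females, were hypophysectomised mice (Hypox, whose pituitary had been removed), Hypox mice killed 30 min after 1 injection of GH, Hypox mice killed 90 min after 1 injection, Hypox mice that had 2 injections spaced by 4 h and were killed 30 min after the second (2 GH), and sham-operated mice injected with vehicle. Removal of the pituitary takes away all of its hormones, not GH alone. RNA of 2 to 5 mice was pooled, and 2 pools were set against each other on each of 22 arrays, giving 11 comparisons of 2 arrays with the dyes swapped. The labels do not say which mice went into which pool, and some pools recur on several arrays, so p-values cover the spread between arrays and only part of the spread between mice. In RNA from whole liver, fewer cells of a type and less RNA per cell cannot be told apart.

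GH binds a preformed pair of its receptors, Ghr, and thereby activates the kinase JAK2 and the transcription factor STAT5B. The pituitary of rodents releases GH in pulses in males and more evenly in females, and the liver reads this difference in genes that differ between the sexes. Prlr, the prolactin receptor, is the closest relative of Ghr and uses the same kinase. Lifr, which binds leukaemia inhibitory factor, and Il6ra, which binds interleukin-6, both signal through the shared subunit Il6st (gp130). Egfr, Insr, Met, Fgfr3 and Fgfr4 are receptor tyrosine kinases for epidermal growth factor and its relatives, for insulin, for hepatocyte growth factor and for fibroblast growth factors. In hepatocytes Fgfr4 with its co-receptor Klb receives the intestinal signal that restrains bile acid synthesis.

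The start-site windows of the 3 receptors with the largest ratios are shown first, because these genes were called after removal of the pituitary and after 2 injections of GH, and STAT5 is a factor that GH activates. Each window runs from 250 bases before to 50 bases after a transcript start in RefSeq (build GRCm38.p6), on the gene's strand, and capitals mark the letters TTCNNNGAA that STAT5 is known to bind. This motif reads the same on both strands, and BCL6 binds an overlapping motif. The Prlr windows lie at chr15:10176988-10177287, chr15:10223656-10223955 and chr15:10293401-10293700, the Lifr windows at chr15:7129322-7129621 and chr15:7140292-7140591, and the Egfr window at chr11:16751953-16752252, all on the plus strand.
Prlr, start 1: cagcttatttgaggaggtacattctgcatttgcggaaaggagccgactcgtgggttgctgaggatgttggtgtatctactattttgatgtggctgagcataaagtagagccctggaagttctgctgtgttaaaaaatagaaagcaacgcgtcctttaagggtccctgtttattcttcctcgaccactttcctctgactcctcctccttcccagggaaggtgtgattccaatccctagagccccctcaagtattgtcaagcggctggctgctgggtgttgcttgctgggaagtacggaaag
Prlr, start 2: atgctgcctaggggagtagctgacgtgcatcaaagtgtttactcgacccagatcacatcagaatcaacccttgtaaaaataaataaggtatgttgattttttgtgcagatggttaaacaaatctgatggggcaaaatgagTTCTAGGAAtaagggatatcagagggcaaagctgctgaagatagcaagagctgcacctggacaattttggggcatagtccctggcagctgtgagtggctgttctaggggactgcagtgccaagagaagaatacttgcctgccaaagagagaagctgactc
Prlr, start 3: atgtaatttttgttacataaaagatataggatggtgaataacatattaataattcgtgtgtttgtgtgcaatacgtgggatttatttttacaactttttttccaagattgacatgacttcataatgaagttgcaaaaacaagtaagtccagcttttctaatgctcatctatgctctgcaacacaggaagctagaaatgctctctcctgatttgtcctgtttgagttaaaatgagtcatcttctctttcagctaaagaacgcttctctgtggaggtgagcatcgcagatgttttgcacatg
Lifr, start 1: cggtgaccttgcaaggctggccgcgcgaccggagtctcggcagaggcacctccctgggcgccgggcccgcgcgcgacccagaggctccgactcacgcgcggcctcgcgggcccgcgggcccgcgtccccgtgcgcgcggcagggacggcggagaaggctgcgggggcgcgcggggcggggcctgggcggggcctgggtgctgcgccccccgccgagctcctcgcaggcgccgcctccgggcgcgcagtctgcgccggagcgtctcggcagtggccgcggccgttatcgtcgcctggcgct
Lifr, start 2: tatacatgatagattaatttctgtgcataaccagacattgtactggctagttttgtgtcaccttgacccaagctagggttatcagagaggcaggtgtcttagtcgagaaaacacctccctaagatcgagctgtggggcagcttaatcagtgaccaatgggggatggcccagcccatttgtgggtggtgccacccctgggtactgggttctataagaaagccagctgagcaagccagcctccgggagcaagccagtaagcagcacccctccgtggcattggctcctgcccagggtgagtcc
Egfr: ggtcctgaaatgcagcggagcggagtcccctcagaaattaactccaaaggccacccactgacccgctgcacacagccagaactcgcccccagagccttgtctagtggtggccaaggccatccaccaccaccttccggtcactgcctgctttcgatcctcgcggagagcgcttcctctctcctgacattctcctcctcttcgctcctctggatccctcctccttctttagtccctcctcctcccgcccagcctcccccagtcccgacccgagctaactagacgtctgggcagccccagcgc

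RefSeq gave 14 such windows for 9 of the 10 receptors, and none was matched for Insr. The motif was present in 1 of the 14, the second of the 3 Prlr windows, where TTCTAGGAA began 110 bases before the start site, at chr15:10223796-10223804. Among all 32851 windows of this length, 2726 held the motif, or 8.3%. The windows of the receptors differed in base composition, with 81.33% G and C and 53 CpG dinucleotides in the first Lifr window, 62.33% and 15 in the Egfr window, and 49.33% and 8, 45.67% and 2, and 35.33% and 4 in the 3 Prlr windows, beside medians of 52.67% and 7 over all windows. Ghr, Lifr and Prlr all start on chromosome 15. A match is a description of these letters only, and which start site the liver used was not measured.

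The tissue and the labels were checked on the same arrays. The hepatocyte markers Alb, Apoa1 and Ttr were well above background in 44 of 44 channels. Y-linked Uty, Kdm5d, Ddx3y and Eif2s3y were higher in males in all 3 comparisons of the sexes, for example by 7.13 on the log2 scale for Eif2s3y in Hypox males over Hypox females, and Xist was lower. Transcripts of other tissues varied between pools: the median log2 ratio of 10 skeletal muscle markers was -2.47 and -2.84 on the arrays of Hypox over sham males, 2.24 and 2.83 for sham males over sham females, and -3.12 and -2.93 for 2 GH over Hypox females, beside 0.04 and 0.07 for Hypox over sham females. The share of spots well above background was lowest, at 57.1%, in the red channel of replicate 2 of Hypox over sham females. All 21 receptor probes were well above background in 42 to 44 of 44 channels and none was saturated. Where a gene had several probes, the brightest gave the values below, and the others are described beside it.

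Removal of the pituitary lowered Lifr and Egfr more than any of the other receptors in males, and Lifr, Prlr and Egfr in females. Lifr fell 7.16-fold in males and 8.7-fold in females. Egfr fell 7.53-fold in males and 2.94-fold in females, and Prlr fell 4.12-fold in females, while its ratio in males was close to 1. In males 5 of 10 receptors were called, 1 higher and 4 lower, where a call needed the same direction on both arrays and a limma adjusted p under 0.05, and 37.4% of all genes tested were called in this comparison. In females 4 of 10 were called, all lower, against 31.1% of all genes. The median log2 ratio of the 10 receptors was -0.18 in males and -0.20 in females, beside 0.01 and 0.00 over all genes. Il6ra, Lifr and Egfr were lower in both sexes, as were 10% of all genes. The male ratio differed from the female one for 3 of 10 receptors, Prlr, Il6ra and Egfr, and for 6.74% of all genes. Calls leaned on the loess step: with the median of each array set to 0 in its place, 25 of the 33 receptor values called in this study were no longer called, while Egfr and Lifr in both sexes and Il6ra and Prlr in females kept their call for Hypox over sham.

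**Figure D1:**
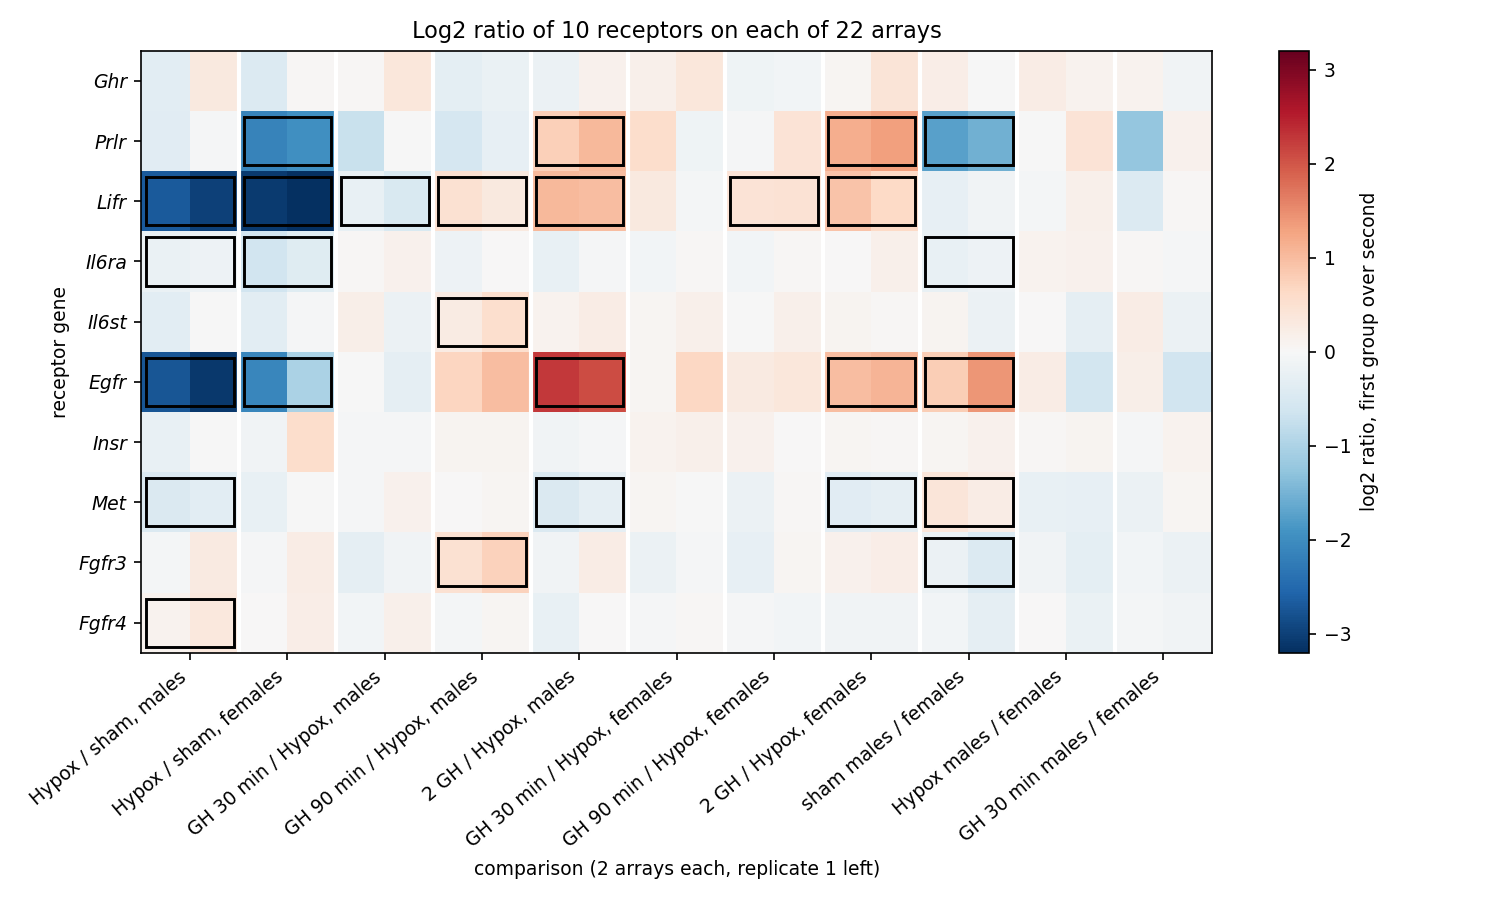
Log2 ratios of the 10 receptors (rows) on each of the 22 arrays (columns, 2 per comparison), with red for higher and blue for lower in the first named group and a black box where both arrays and the limma fit gave a call. The Lifr row holds the darkest blue, at -2.69 to -3.19 on the 4 arrays of Hypox over sham, and the Ghr and Insr rows hold no box.

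Lifr had log2 ratios of -2.69 and -2.99 on the arrays of Hypox over sham males, giving -2.84 ± 0.07 (SE, n = 2 arrays) and a limma adjusted p of 1.5e-10. Hypox over sham females gave -3.06 and -3.19, or -3.12 ± 0.07 with an adjusted p of 2.2e-10. All 4 arrays showed the fall, and no channel of a Hypox pool reached the signal of a sham pool. The size of the fall depended on the probe: the other 3 probes of Lifr gave -1.89, -2.06 and -1.11 in males and -1.78, -2.05 and -1.09 in females. All 4 probes were called in both sexes. The 3 dimmer probes lay closer to background in Hypox livers than the brightest, with lowest green signals of 274 to 345 beside 2969 for the brightest. Which of them measures the fall best was not tested.

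Egfr had log2 ratios of -2.74 and -3.09 in Hypox over sham males, giving -2.91 ± 0.25 and an adjusted p of 2.3e-06 in the limma fit. In Hypox over sham females the arrays gave -2.09 and -1.02, or -1.56 ± 0.25 with an adjusted p of 0.00052. The female arrays thus differed from each other by more than the male ones. The fall in males exceeded that in females by -1.36 ± 0.35 on the log2 scale (limma contrast, adjusted p = 0.039). That difference was not called in a fit without replicate 2 of the female comparison, where it was -0.89 with an adjusted p of 0.29, nor without either male replicate, with adjusted p values of 0.075 and 0.23.

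The 4 Egfr probes came from 2 RefSeq transcript records, with 2 probes each. The probes of the first record gave -2.91 and -2.87 on the log2 scale in Hypox over sham males, and those of the second -3.92 and -3.75. In females the first record gave -1.56 and -1.62, and the second -2.78 and -2.59. The second record also read lower in 2 GH over Hypox males, where the rise was smaller, with ratios of 1.28 and 1.10 beside 2.17 and 2.24 for the first record. In 2 GH over Hypox females the 4 probes lay closer together, between 0.89 and 1.09. All 4 probes were called in these 4 comparisons. The difference between the records itself was not tested.

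**Figure D2:**
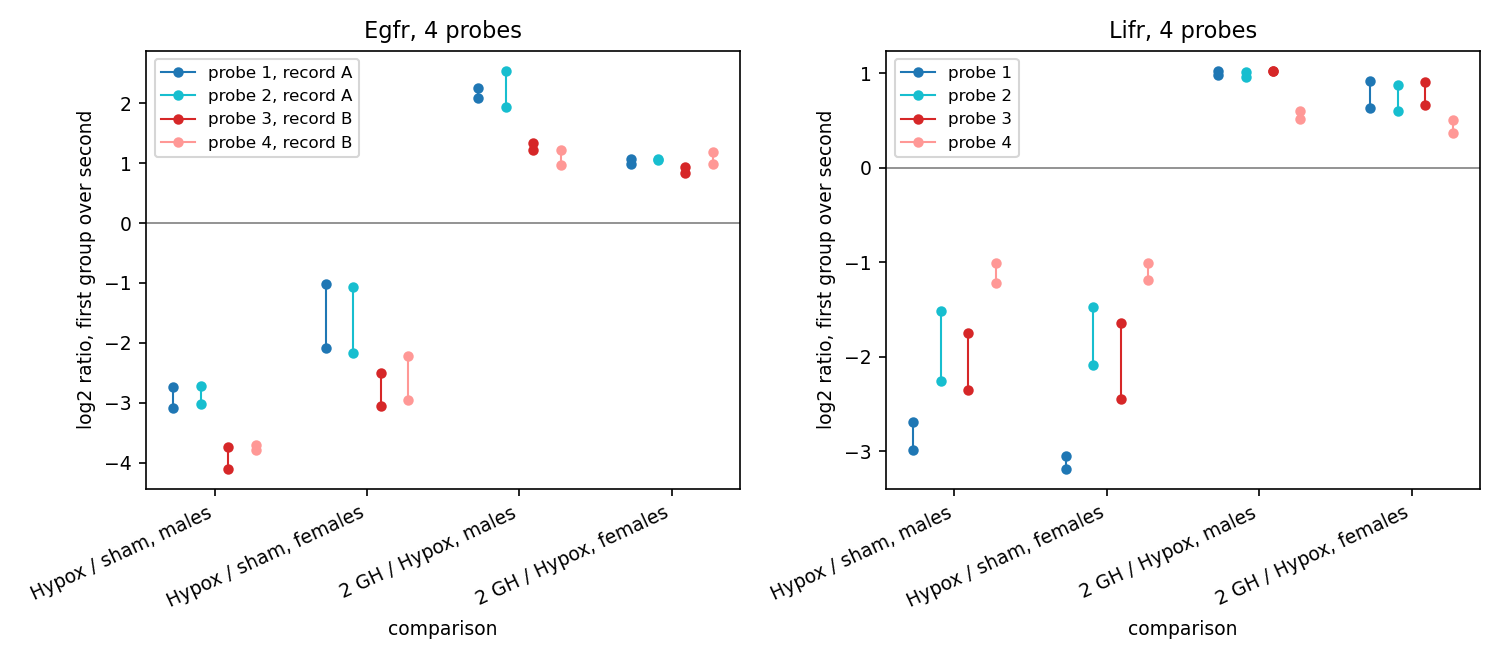
Log2 ratios (vertical axis) of the 4 probes of Egfr and of Lifr in 4 comparisons (horizontal axis), with 1 point per array and a line joining the 2 arrays of a comparison. Egfr probes of record B lie below those of record A in both comparisons of Hypox with sham and below them in 2 GH over Hypox males, and the Lifr probes are spread from -1.11 to -2.84 in Hypox over sham males.

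The female Hypox channels of Egfr fell into separate ranges that followed the pool size in the labels. In the 6 channels of Hypox pools of 2 females the log2 signal was 13.19 to 13.52, and in the 4 channels of pools of 3 females it was 12.37 to 12.53. Replicate 1 of Hypox over sham females held a pool of 3 and gave -2.09, and replicate 2 held a pool of 2 and gave -1.02. Both arrays of 30 min over Hypox females held a Hypox pool of 3, whereas those of 90 min and of 2 GH held a pool of 2. The ranges of Lifr overlapped in Hypox females, with 11.93 to 12.08 in the pools of 2 and 12.06 to 12.32 in the pools of 3. In Hypox males Egfr read 12.92 and 13.15 in the 2 channels of pools of 5, which stood on the arrays of 2 GH, and 12.43 to 12.67 in the 8 channels of pools of 3. Whether each size stands for a single pool is not given in the labels. The arrays of 2 GH and of 90 min over Hypox females, all with a Hypox pool of 2, differed in the skeletal muscle markers. Their medians were -3.12 and -2.93 for 2 GH, and -0.04 and 0.00 for 90 min. The channels of pools of 2 females are therefore not read as a single pool.

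Prlr gave log2 ratios of -2.13 and -1.96 in Hypox over sham females, or -2.04 ± 0.27 with a limma adjusted p of 0.00014. Hypox over sham males gave -0.37 and -0.04, or -0.20 ± 0.27 with an adjusted p of 0.60. The male ratio minus the female one was 1.84 ± 0.38 (limma contrast, adjusted p = 0.014), with no overlap between the arrays of the sexes. Leaving out any 1 of the 4 arrays left this difference at 1.64 to 2.04 but ended its call, with adjusted p values between 0.058 and 0.10. Sham males over sham females gave -1.74 and -1.55, or -1.64 ± 0.27 with an adjusted p of 0.0018, a level 3.13-fold lower in males; without replicate 1 the adjusted p was 0.065. With the pituitary removed from both sexes the ratio of males over females was -0.02 and 0.43 on the 2 arrays and was not called (adjusted p = 0.82).

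Il6ra gave smaller ratios, read from a dim probe with a mean log2 intensity of 7.25. Their size depended on the processing: under the alternatives the ratio of Hypox over sham females ran from -0.82 to -0.21. Its arrays gave -0.62 and -0.39 in Hypox over sham females, or -0.51 ± 0.06 with a limma adjusted p of 3.7e-05, and its second probe gave -0.58. Hypox over sham males gave -0.21 and -0.17, or -0.19 ± 0.06 with an adjusted p of 0.017. The difference between the sexes was 0.32 ± 0.08 (adjusted p = 0.033). Without either male replicate the call in males was lost, with adjusted p values of 0.078 and 0.21, and leaving out any 1 of the 4 arrays also ended the call of the difference. Its partner Il6st gave -0.33 and -0.02 in Hypox over sham males and -0.35 and -0.04 in Hypox over sham females, and neither was called.

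Among the other receptor tyrosine kinases the changes were small. Met gave -0.47 and -0.34 in Hypox over sham males, or -0.41 ± 0.07 with a limma adjusted p of 0.00096, and -0.25 and -0.02 in females, which was not called. Fgfr4 gave 0.12 and 0.34 in males, or 0.23 ± 0.06 with an adjusted p of 0.011, and it was the only receptor called higher. The Fgfr4 call was lost without replicate 1 (adjusted p = 0.059) or replicate 2 (adjusted p = 0.17). Fgfr3 and Insr were not called in either sex. Insr gave -0.10 and 0.55 in Hypox over sham females, and the higher value came from the array with the lowest share of spots above background; with that array alone its ratio had an adjusted p of 0.0017. Skeletal muscle markers were lower on both arrays of Hypox over sham males, with 7 of 10 called lower, and their part in the male ratios was not tested. On the arrays of Hypox over sham females 0 of 10 muscle markers were called. Of 5 lymphocyte markers 4 were called higher in Hypox over sham males (median log2 ratio 0.86) and 3 in females (median 0.25). In males 1 of 3 hepatocyte markers was lower, and of 5 endothelial markers 2 were higher and 1 was lower. Also in males, 1 of 5 stellate cell markers was higher, and of 5 cholangiocyte markers 1 was higher and 1 was lower. In females 1 of 4 adipocyte markers was higher, 1 of 5 Kupffer cell markers was lower, and of 5 endothelial markers 1 was higher and 2 were lower. The part of these markers in the receptor ratios was not tested.

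Ghr itself was called in none of the 11 comparisons by its brightest probe. Its ratios lay between -0.27 and 0.26 on the log2 scale. Hypox over sham males gave -0.34 and 0.31, arrays that pointed in opposite directions, and Hypox over sham females gave -0.43 and 0.04. Its second probe, with ratios from -0.29 to 0.25, was not called either. Probe 3 of Ghr was called in sham males over sham females at 0.40, in 2 GH over Hypox males at 0.65 and in 2 GH over Hypox females at 0.68. With the mean over its 3 probes in place of the brightest, 2 GH over Hypox females was called at 0.38 (adjusted p = 0.014). In males the ratio at 30 min over Hypox was 0.20 ± 0.09 (adjusted p = 0.24) and at 90 min -0.27 ± 0.09 (adjusted p = 0.10). The 90 min ratio minus the 30 min ratio in males was -0.47 ± 0.12 with an adjusted p of 0.062, and under 5 other settings that p lay between 0.037 and 0.049.

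In sham mice, which keep their pituitary, 5 of 10 receptors differed by sex, with 2 higher and 3 lower in males, and 8.77% of all genes were called. Egfr gave 0.79 and 1.41 in sham males over sham females, or 1.10 ± 0.25 with a limma adjusted p of 0.014. Its 4 probes gave 1.05 to 1.84, all called. Egfr was thus 2.15-fold higher in sham males, whereas Prlr, as above, was lower in them. Without replicate 2 the Egfr ratio was 0.64 and its adjusted p 0.40.

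The other sex differences in sham livers were smaller. Met gave 0.39 and 0.23 in males over females (0.31 ± 0.07, limma adjusted p = 0.022). Fgfr3 gave -0.19 and -0.43 (-0.31 ± 0.06, adjusted p = 0.0034). Il6ra gave -0.24 and -0.16 (-0.20 ± 0.06, adjusted p = 0.046). The calls of Met and Fgfr3 were lost without either replicate, and that of Il6ra without replicate 1, where it was -0.09. On these arrays 2 of 10 skeletal muscle markers were called higher and 2 of 5 Kupffer cell markers were called lower in males, and their part in these small ratios was not tested. Lifr was not called, at -0.27 and -0.12.

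Without the pituitary no receptor passed the test in the direct comparisons of males with females, which were made without GH and at 30 min. The other GH groups were not set against each other by sex on the arrays. In Hypox males over Hypox females 0 of 10 receptors were called by limma, with 3 at an unadjusted p under 0.05, and 1.63% of all genes were called. In 30 min males over 30 min females 0 of 10 were called, with 2 at an unadjusted p under 0.05, against 0.504% of all genes. Fgfr3 gave -0.11 and -0.32 in Hypox males over Hypox females (adjusted p = 0.078), and it was called at -0.20 in the model with 1 coefficient per group. The design closes loops, so the ratio of Hypox males over Hypox females can also be summed from 3 other comparisons. For Prlr the sum was 0.20 and the direct value 0.20, for Lifr 0.09 and 0.05, and for Egfr -0.25 and -0.18. Over the 10 receptors the gap between sum and direct value had a median of 0.08 and was widest, at 0.33, for Insr.

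GH given back to Hypox mice raised Egfr, Lifr and Prlr in both sexes after 2 injections, and it raised Lifr at 90 min. Over the 6 comparisons of GH with Hypox, 13 of 60 receptor values were called, against 6.4% of all gene values. The same Hypox pools may stand in several of these comparisons. At 30 min 1 of 10 receptors was called in males, against 2.5% of all genes, and 0 of 10 in females by limma (1 at an unadjusted p under 0.05), against 0.0191%. At 90 min 3 of 10 were called in males, all higher, against 4.98% of all genes called and 3.4% called higher, and 1 of 10 in females, against 3.17%. After 2 injections 4 of 10 were called in each sex, 3 higher and 1 lower, against 19.3% of all genes in males and 8.43% in females. The difference between the sexes was called for 0 of 10 receptors at 30 min and after 2 injections (limma, with 1 and 3 at an unadjusted p under 0.05), against 0.00764% and 1.97% of all genes.

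**Figure D3:**
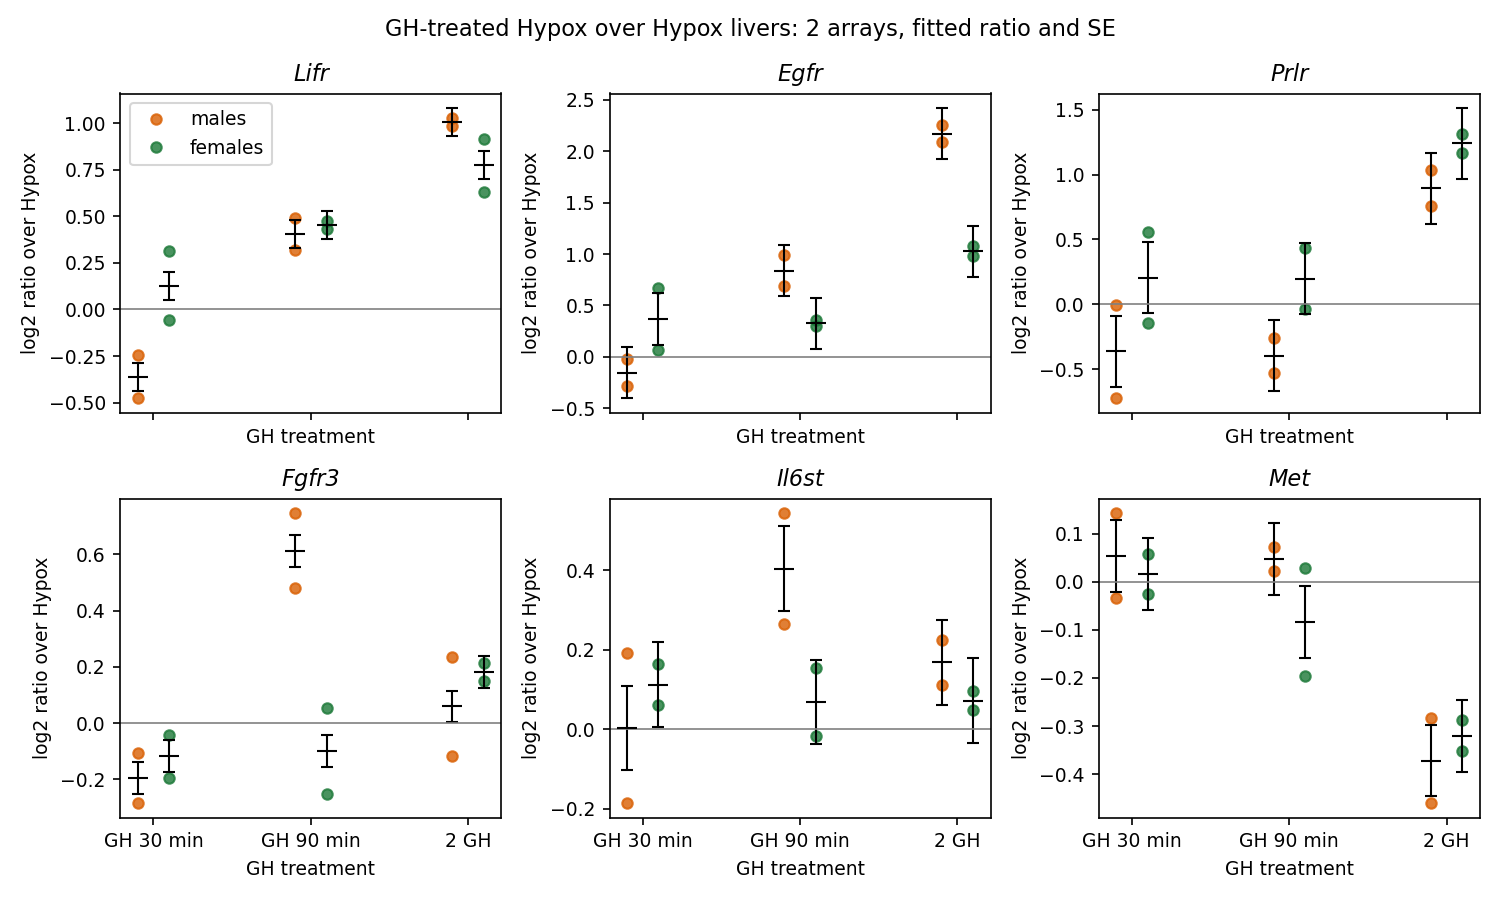
Log2 ratio over Hypox (vertical axis) of 6 receptors at 30 min, at 90 min and after 2 injections of GH (horizontal axis), with a coloured point per array for males (orange, left) and females (green, right) and the fitted ratio ± SE in black. Lifr, Egfr and Prlr stand above 0 on all 4 arrays of 2 GH, Met stands below 0 on those arrays, and Fgfr3 is highest at 90 min in males, at 0.48 and 0.75.

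Lifr gave 1.03 and 0.99 in 2 GH over Hypox males, or 1.01 ± 0.07 with a limma adjusted p of 7.8e-06, and 0.92 and 0.63 in 2 GH over Hypox females, or 0.77 ± 0.07 with an adjusted p of 0.00015. All 4 probes were called in both sexes, at 0.56 to 1.03 in males and 0.44 to 0.79 in females. Of the male arrays, replicate 1, at 1.03, had a median of the muscle markers of 0.04, and replicate 2, at 0.99, had one of 2.83. The part of these markers in the Lifr ratio was not tested. At 90 min the arrays gave 0.49 and 0.32 in males (0.41 ± 0.07, adjusted p = 0.0080) and 0.43 and 0.47 in females (0.45 ± 0.07, adjusted p = 0.0069). The other 3 probes gave 0.23 to 0.61 in males and 0.01 to 0.31 in females at 90 min. Without either replicate the male call at 90 min was lost, with adjusted p values of 0.14 and 0.16, and the female call was lost without replicate 2 (adjusted p = 0.32) and with the mean over all probes (0.24, adjusted p = 0.15).

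At 30 min the brightest Lifr probe was lower in males, at -0.24 and -0.48 (-0.36 ± 0.07, limma adjusted p = 0.031), and gave 0.31 and -0.06 in females. The other 3 probes gave 0.10, -0.05 and -0.01 in males, and the mean over all 4 gave -0.08 with an adjusted p of 0.66. The call was also lost without either replicate, with adjusted p values of 0.17 and 0.18. On replicate 1 of that comparison the muscle markers had a median of 3.01, and on both replicates the gut mucosa markers had medians of -3.16 and -2.63, with 3 of 3 called lower. Their part in this value was not tested. The 90 min ratio minus the 30 min ratio of Lifr in males was 0.77 ± 0.11 (adjusted p = 0.0060), and 0.33 ± 0.11 (adjusted p = 0.37) in females. In males 2 of 10 receptors differed between the times, Lifr and Fgfr3, against 2.46% of all genes, and the Lifr call was lost without replicate 2 at 30 min (adjusted p = 0.058) or replicate 1 at 90 min (adjusted p = 0.065).

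Egfr gave 2.25 and 2.09 in 2 GH over Hypox males, or 2.17 ± 0.25 with a limma adjusted p of 8.8e-05, a 4.51-fold rise. In 2 GH over Hypox females it gave 0.98 and 1.08, or 1.03 ± 0.25 with an adjusted p of 0.026. The male rise minus the female one was 1.14 ± 0.35, which missed the threshold (adjusted p = 0.10). In males replicate 1, at 2.25, had medians of 0.37 for pancreas markers and 0.04 for muscle markers, and replicate 2, at 2.09, had medians of 3.64 and 2.83. The part of these markers in the Egfr ratio was not tested. At 90 min Egfr gave 0.69 and 0.99 in males (0.84 ± 0.25, adjusted p = 0.077) and 0.30 and 0.35 in females (adjusted p = 0.66). One probe of the second record was called at 90 min in both sexes, at 1.22 in males and 0.97 in females, and the other was not, at 0.22 and 0.52. The female call after 2 injections was lost without replicate 1 (adjusted p = 0.29) or replicate 2 (adjusted p = 0.25).

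Prlr gave 0.76 and 1.03 in 2 GH over Hypox males (0.89 ± 0.27, limma adjusted p = 0.036) and 1.17 and 1.31 in 2 GH over Hypox females (1.24 ± 0.27, adjusted p = 0.017). At 30 min and 90 min it was not called in either sex. At 30 min the arrays differed by pool: in females the GH pool of 4 mice read 11.61 and 11.67 on the 2 arrays that held it by its label, and the pool of 3 read 10.82 and 10.86. In males at 30 min the pool of 4 read 10.29 and 10.37 and the pool of 3 read 10.89 and 10.95. In these 2 groups the pools differed by 0.59 in males and 0.80 in females, as medians. Elsewhere channels of 1 pool size were less alike. Hypox pools of 2 females read 10.41 to 11.22 and overlapped with the pools of 3, at 11.00 to 11.26. Hypox pools of 3 males read 10.90 to 11.45. The 2 channels of Hypox pools of 5 males, on the arrays of 2 GH, lay below these, at 10.65 and 10.84. The part of this pool difference in the male ratio of 2 GH over Hypox was not tested. The calls after 2 injections were lost without either array, with adjusted p values of 0.16 and 0.34 in males and 0.17 and 0.27 in females.

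Met was the receptor that fell with 2 injections. It gave -0.46 and -0.28 in males (-0.37 ± 0.07, limma adjusted p = 0.0037) and -0.35 and -0.29 in females (-0.32 ± 0.07, adjusted p = 0.022). Its ratios over Hypox at 30 min and 90 min lay between -0.08 and 0.05 and were not called. The male call was lost without replicate 1 (adjusted p = 0.12), and the female call without either replicate (adjusted p = 0.22 and 0.27). On the arrays of 2 GH over Hypox females 8 of 10 muscle markers were lower, and their part in the ratio was not tested.

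Fgfr3 rose at 90 min in males, at 0.48 and 0.75 (0.61 ± 0.06, limma adjusted p = 0.00010). In females the 90 min arrays gave -0.25 and 0.05. The male ratio minus the female one was 0.71 ± 0.08 (adjusted p = 0.011), 1 of 10 receptors called in this contrast, against 0.00764% of all genes. The second Fgfr3 probe gave 0.62 in males and -0.03 in females, and the dimmest probe 0.17 and 0.05. The male arrays, at 0.48 and 0.75, had medians of the muscle markers of 2.39 and 0.12 and of the neutrophil markers of 1.87 and 1.82. The part of both sets of markers in the Fgfr3 ratio was not tested. In males 90 min minus 30 min gave 0.81 ± 0.08 (adjusted p = 0.00074). The call of the difference between the sexes was lost without either male replicate, at 0.73 and 0.69, or female replicate 2, at 0.76. As a mean over the 3 probes the difference was 0.49, with a limma adjusted p of 0.10. With median centring in place of loess it was 0.13, with an adjusted p of 0.79. The call was also lost without the dye term, with the scanner software's own ratio and without the arrays of sham pools.

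Il6st gave 0.26 and 0.54 at 90 min over Hypox males (0.40 ± 0.11, limma adjusted p = 0.049), its only call. The call was lost without either replicate, with adjusted p values of 0.26 and 0.42. Insr was called in none of the 11 comparisons, with ratios from -0.14 to 0.22. Il6ra and Fgfr4 were not called in any of the 6 comparisons with GH.

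The signals of single channels, after normalization within and between arrays, place the groups for each probe. In males the log2 signal of Lifr averaged 12.21 ± 0.17 in Hypox mice (SD, n = 10 channels), 12.08 ± 0.10 at 30 min (n = 4), 12.50 ± 0.01 at 90 min (n = 2), 13.11 ± 0.01 after 2 GH (n = 2) and 14.93 ± 0.11 in sham mice (n = 4). In females it averaged 12.06 ± 0.11 in Hypox mice, 12.26 ± 0.17 at 30 min, 12.41 ± 0.06 at 90 min, 12.81 ± 0.13 after 2 GH and 15.09 ± 0.13 in sham mice, with the same numbers of channels. The sham groups overlapped with each other and lay above all others, 2 GH lay next, and the 30 min groups overlapped with the Hypox groups. Summed from 2 comparisons, the log2 ratio of 2 GH over sham was -1.83 in males and -2.35 in females.

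In males Egfr averaged 12.68 ± 0.21 in Hypox mice (n = 10), 15.21 ± 0.28 after 2 GH (n = 2) and 15.46 ± 0.23 in sham mice (n = 4). In females it averaged 12.99 ± 0.48 in Hypox mice, 14.54 ± 0.06 after 2 GH and 14.35 ± 0.16 in sham mice. In each sex the channels of 2 GH and sham overlapped, and those of Hypox lay below both. The log2 ratio of 2 GH over sham, summed from 2 comparisons of the fit, was -0.74 in males and -0.53 in females. Those sums run through Hypox pools that read differently between arrays, at 12.92 and 13.15 beside 2 GH and 12.58 and 12.65 beside sham in males. In females both Hypox pools beside 2 GH held 2 mice, and those beside sham held 3 and 2. Over all arrays the pools of 2 read 13.19 to 13.52 and those of 3 read 12.37 to 12.53. The female sum is negative although the channel mean was higher after 2 GH than in sham mice, so no direction is read from it.

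For Prlr sham females stood alone, at 13.31 ± 0.18 (n = 4). The next groups were 2 GH females at 11.68 ± 0.15, 2 GH males at 11.64 ± 0.06 and sham males at 11.58 ± 0.14, which did not differ beyond their spread. Hypox males averaged 11.09 ± 0.26 and Hypox females 10.92 ± 0.29. The log2 ratio of 2 GH over sham, summed from 2 comparisons, was 0.69 in males and -0.80 in females. The male sum runs through Hypox pools that read differently. Those beside 2 GH, of 5 mice, read 10.65 and 10.84. Hypox pools of 3 males, the size beside sham, read 10.90 to 11.45 over all their arrays.

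**Figure D4:**
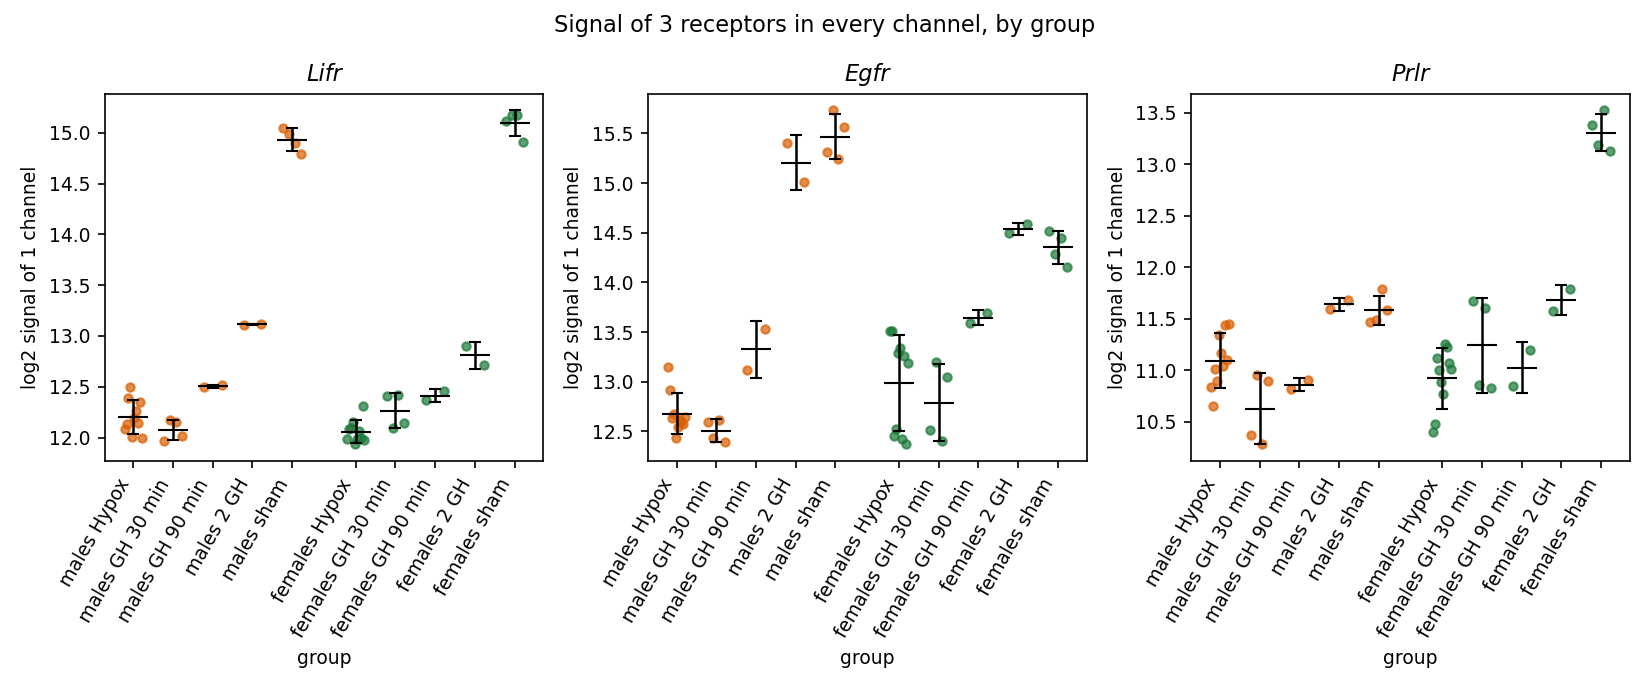
Log2 signal of single channels (vertical axis) for the brightest probe of Lifr, Egfr and Prlr in 10 groups (horizontal axis; males orange, females green), with the mean ± SD in black. Sham groups are highest for Lifr, at 14.93 and 15.09, Egfr in Hypox females shows a lower range at 12.37 to 12.53 and an upper one at 13.19 to 13.52, and Prlr in sham females, at 13.31, lies above all other groups.

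The other receptors varied less between groups. Group means of the brightest probe ranged from 15.96 to 16.24 for Ghr, from 7.09 to 7.76 for Il6ra, from 12.22 to 12.86 for Il6st, from 6.44 to 6.55 for Insr, from 8.50 to 9.10 for Met, from 10.67 to 11.46 for Fgfr3 and from 12.59 to 13.06 for Fgfr4. The highest group was 90 min males for Fgfr3, sham females for Il6ra and sham males for Met. Levels of different probes cannot be set against each other on these arrays.

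Across the 22 oriented log2 ratios, which share pools and slides, Lifr and Egfr had a Pearson correlation of 0.86, the highest of the pairs among the 10 receptors, and Lifr with Prlr and with Il6ra 0.62 each. Fgfr4 ran against Lifr at -0.66. Over all tested genes with a symbol, the profile most like that of Lifr was Igf1 at 0.97, followed by Ugt2a3 and Acot8 at 0.96 each. Igf1 encodes the growth factor through which GH acts on other tissues, and its own ratios were -2.46 in Hypox over sham males and -3.25 in females. For Egfr the most alike were Hspe1 and Ube2f at 0.96 and Naa16 at 0.95. For Prlr they were Nt5e at 0.94, Btd at 0.90 and Sntg2 at 0.89, and for Il6ra Impg2 at 0.91, Hmox2 and Tmem144 at 0.85. For the other 6 receptors the highest correlation was between 0.84 and 0.89, with Mri1 for Ghr, Phf23 for Il6st, Slc34a3 for Insr, Afg1l for Met, Btbd7 for Fgfr3 and Snx4 for Fgfr4.

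Genes that act with these receptors were read from lists chosen by function, and their counts stand beside 37.4% of all genes called in Hypox over sham males (18.8% higher and 18.6% lower) and 31.1% in females (14.6% higher and 16.5% lower). The share called was 38.9% of the feedback inhibitors, 41.2% of the other cytokine receptors, 45.5% of the other growth factor receptors, 47.1% of the ligands, 47.4% of the adaptors and kinases and 54.5% of the JAK and STAT genes in males. In females it was 27.3% of the JAK and STAT genes, 27.8% of the feedback inhibitors, 40.9% of the other growth factor receptors, 42.1% of the adaptors and kinases, 47.1% of the ligands and 52.9% of the other cytokine receptors. With 11 to 22 genes a list, nothing particular to a list is read from these shares. Of 18 feedback inhibitors of receptor signalling, 3 rose and 4 fell in Hypox over sham males, and 1 rose and 4 fell in females. The STAT5 targets Socs2 and Cish, whose products damp GH signalling, had log2 ratios of -2.55 and -2.41 in males and of -3.81 and -4.14 in females. Errfi1, an inhibitor of EGFR, had log2 ratios of -2.54 in males and -1.31 in females. After 2 injections Socs2 and Cish rose by 3.22 and 3.11 in males and by 3.60 and 3.98 in females. Grb10, an adaptor that dampens insulin receptor signalling, rose by 1.21 in males. At 30 min Socs2 rose by 2.22 in males and 2.97 in females, and at 90 min Socs1 rose by 2.20 in males. The list medians lay between -0.16 and 0.34 in the 11 comparisons.

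Of 17 ligands, 5 rose and 3 fell in Hypox over sham in each sex. Fgf1 had log2 ratios of -0.94 in Hypox over sham males and -1.46 in females, Hbegf, a ligand of Egfr, 1.12 and 0.93, and Il6, the ligand of Il6ra, was called in males at 1.27. After 2 injections Igf1 rose by 1.22 in males and by 1.53 in females, Fgf21 had -0.91 in males, and Igf2 -1.23 in females. Of 11 JAK and STAT genes, 3 rose and 3 fell in males and 1 rose and 2 fell in females without a pituitary, with Stat5a at -0.87 and -0.94 and Jak1 at -0.42 and -0.60. Stat5b was called in 2 GH over Hypox males at -0.86.

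Receptors outside the 10 were counted in the same way. Of 17 cytokine receptors, 4 rose and 3 fell in Hypox over sham males and 4 rose and 5 fell in females. Il1r1, the interleukin-1 receptor, had -1.99 in males and -1.23 in females, Il10rb 1.15 and 0.88, and Lepr, the leptin receptor, was called in females at 1.11. Of 22 growth factor receptors, 7 rose and 3 fell in males and 5 rose and 4 fell in females. Mst1r, a relative of Met, had 1.49 in males and 1.69 in females, and Tgfbr2 1.01 and 0.88. Klb, the co-receptor of Fgfr4, was called in males at 0.68. Of 19 adaptors and kinases, 5 rose and 4 fell in males and 4 rose and 4 fell in females, with Irs1, an adaptor of Insr, at 0.67 in males and 1.08 in females. Of 4 genes that process receptors at the cell surface, 1 fell in each sex, the sheddase Adam17, at -0.46 in males and -0.61 in females.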

How the data were processed

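Each array compared pools of liver RNA labelled with Alexa 555 (green) or Alexa 647 (red). The deposited scanner files give, per the file headers, each spot's mean and background signal intensity, the scanner software's log10 ratio, and flags. The authors' deposited value table gives log2 ratios, a normalized ratio per the labels; it served as a check. Of its 22 columns, 6 equalled the scanner file of the same label and 16 that of the other replicate of the same comparison, so replicates are numbered as in the scanner files. Spots were read with Agilent's Feature Extraction software, per the file headers. A genome build is not given in the sources used here.

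Intensities were corrected with normexp (offset 50) and normalized by loess within arrays in limma 3.58.1 (R 4.3.3), with control spots at weight 0 and outlier spots left out. Ratios were turned to the first named group by the dyes in the labels. Spots of a probe were averaged, probes were named by accession through RefSeq (22072 of 41174 matched a symbol), and the brightest probe stood for a gene. A gene was tested where, for some comparison, both arrays read it well above background in either channel. One limma model of all 22 arrays held 11 comparisons and a dye term, with 10 residual degrees of freedom. P-values were adjusted by the Benjamini-Hochberg method over all genes within a comparison, and a call needed an adjusted p under 0.05 and the same direction on both arrays. Sexes and times were compared through contrasts of these coefficients. Having 2 arrays per comparison limits the precision. The signals of single channels came from loess within and Aquantile between arrays.

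The receptors and the gene lists were chosen with earlier results of these data known. The text names every receptor, up to 4 called members of each list with the largest ratios per comparison (1 list member is not reported here), the check genes, and the 3 genes most correlated with each receptor or the first of them. The pool sizes were brought in after the channel signals had been seen. Same-numbered arrays were checked for pairing: over 55 pairs of comparisons the correlation of their replicate differences ran from -0.49 to 0.72, with 27 over 0.1. This range cannot decide on pairing, because a shared pool can stand first in some comparisons and second in others. By the labels, sham males and both 30 min groups had a pool of 4 as replicate 1 and of 3 as replicate 2 on all their arrays. Same-numbered arrays can thus share a pool, and the fit reported did not model this. The alternatives covered background, normalization, filter, dye term, probe choice, model, replicate, slide and scan day, and arrays left out. In simulated arrays of 26191 genes, 95% of 100 genes changed by 1 and 98% of 100 changed by 2 on the log2 scale were called in Hypox over sham males. Also called were 12 unchanged genes, 5.85% of the calls. The simulated noise was drawn independently for each array, so shared pools and slides were not represented.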

Additional observations from a re-analysis of the deposited data

Results flagged for a closer look

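Of the 60 sets of channels examined (10 receptors in the 6 groups with at least 4 channels), 3 held a channel far from the rest, where chance gives about 1 in 20. The log2 signal of Insr in Hypox females was 7.18 on replicate 2 of Hypox over sham females, and 6.34 to 6.53 in the other 9 channels of that group. Il6ra at 30 min in males read 7.34 on replicate 2 of 30 min over Hypox males and 7.05 to 7.09 in the other 3 channels. Fgfr3 in Hypox males read 10.99 on replicate 1 of 2 GH over Hypox males and 10.74 to 10.86 in the other 9 channels.

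Differences between sexes or times passed the limma test for 6 receptor values. For Hypox over sham, the male minus the female log2 ratio was 1.84 for Prlr, 0.32 for Il6ra and -1.36 for Egfr. At 90 min the male minus the female ratio of Fgfr3 was 0.71. In males the 90 min minus the 30 min ratio was 0.77 for Lifr and 0.81 for Fgfr3.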

How the results depend on the processing

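None of the 33 called values changed its direction under any alternative run, whereas 67 of the 137 values not called changed sign under at least 1. Of the called values, 7 kept their call everywhere: Egfr and Lifr in Hypox over sham of both sexes, Il6ra and Prlr in Hypox over sham females, and Egfr in 2 GH over Hypox males. Of the values not called, 14 were called under at least 1 alternative. With median centring in place of loess, the counts of receptors called were 2 of 10 for Hypox over sham males, 1 for sham males over sham females, 1 over the 6 comparisons of GH and 0 for the difference of the Hypox effect between the sexes; without the dye term they were 3, 3, not moved beyond 1.5 times, and 1. The model with 1 coefficient per group gave 5 for that difference, and it and the fit without background subtraction each gave 1 for males over females without a pituitary, where the fit reported gave 0. Leaving out an array gave 3 to 3 for Hypox over sham males, 1 to 2 for sham males over sham females, 5 to 5 for the 6 comparisons of GH, and 0 to 2 for the difference, which was 0 without either male array or female replicate 2. A replicate block changed no call, with 5, 4, 5, 13, 0 and 3 receptors called for Hypox over sham males and females, sham males over sham females, the GH comparisons, males over females without a pituitary, and the difference; slide as a random block ended 1 call, that of Il6st at 90 min in males, and scan day ended none. Leaving out an array leaves 1 array for its comparison. The cause of these changes was not tested. Signal over background limits Insr, Il6ra and the dimmer probes of Lifr and Fgfr3 most.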
